A study of Mus musculus with 2 samples.

Results

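The miR-200 family, miR-203 and miR-205 are the miRNAs best known from epithelia, and their genes were followed here in small RNA libraries (microRNA-seq) of mouse neural tube. The set was taken by gene name, with earlier results of these data known: Mir200b, Mir200a and Mir429 on chromosome 4, Mir200c and Mir141 on chromosome 6, and the single genes Mir203 and Mir205. All 7 were found among the 1973 miRNA gene rows of both libraries. The labels describe healthy B6NCrl embryos at embryonic day 13.5, with tissue of both sexes pooled, and give 1 condition, so there is no treated or mutant group. The 2 libraries are numbered as biological replicates 1 and 2. They come from separate tissue samples under the same donor entry, and the embryos behind each sample are pooled.

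MiRNAs repress messenger RNAs through pairing of their seed, bases 2 to 8 from the 5′ end, with sites in the target. The miR-200 family represses Zeb1 and Zeb2, transcription factors that switch off E-cadherin, and the Zeb proteins in turn repress the miR-200 genes, so that the family stands for the epithelial state. In skin, miR-203 is known from the differentiating layers of the epidermis, where it represses p63, and miR-205 from basal progenitor cells. Neural tube is itself an early epithelium, but these miRNAs are known mainly from surface, glandular and olfactory epithelia. No messenger RNA was measured in these libraries.

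The mature sequences are shown because they place the 5 miR-200 genes in a pair of seed groups, with Mir203 and Mir205 apart from them. They were matched by symbol for 7 of the 7 genes and are from RefSeq, build GRCm38.p6, written 5′ to 3′ with the seed in capitals. The strand shown is the one each gene is known for, since the deposited counts do not separate the arms of a hairpin.
Mir200b, mmu-miR-200b-3p: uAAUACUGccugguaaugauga
Mir429, mmu-miR-429-3p: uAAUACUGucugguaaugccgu
Mir200c, mmu-miR-200c-3p: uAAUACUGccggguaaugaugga
Mir200a, mmu-miR-200a-3p: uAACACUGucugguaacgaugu
Mir141, mmu-miR-141-3p: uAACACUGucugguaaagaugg
Mir203, mmu-miR-203-3p: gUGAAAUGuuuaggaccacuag
Mir205, mmu-miR-205-5p: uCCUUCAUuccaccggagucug
Mir200b, Mir429 and Mir200c share a seed, and Mir200a and Mir141 share another that differs by U4C, counted from the 5′ end with the base of the first group first. Each chromosomal cluster therefore holds both seeds. None of the 4 seeds printed occurs in a mature miRNA of another gene among the 1738 in the RefSeq table. Outside the seed the relatives are close: Mir200b and Mir200c differ at 2 of 22 bases (U11G and A22G), and Mir200a and Mir141 also at 2 (C17A and U22G).

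The genes lie at 4 places in the genome. On the minus strand of chromosome 4, Mir200b (156055681 to 156055750) comes first in the direction of transcription. Mir200a (156054896 to 156054985) follows after 695 nt and Mir429 (156053905 to 156053987) after another 908 nt. All 3 lie in introns of the protein-coding gene Ttll10 and within the noncoding transcript Gm13648, in which Mir429 falls in an exon and the other two in an intron. On the minus strand of chromosome 6, Mir200c (124718322 to 124718390) and Mir141 (124717914 to 124717985) are 336 nt apart in introns of the noncoding gene Gm15884, between Phb2 and Ptpn6, and Mir141 also overlaps part of an exon of the unverified transcript Gm29008. Mir203 (chromosome 12, 112130880 to 112130955, plus strand) overlaps no other gene of GENCODE M21 and lies 3320 nt from Aspg and 15252 nt from Kif26a. Mir205 (chromosome 1, 193507463 to 193507530, minus strand) lies in an exon of the long noncoding RNA 4631405K08Rik, which RefSeq names Mir205hg. Coordinates are those of GENCODE M21 on GRCm38.

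The libraries held 7019469 and 5738209 same-strand counts on miRNA genes, and levels are given as CPM, counts scaled to the library's total. Each hairpin gives mature products of about the same length, 22 or 23 nt for the strands printed above, so CPM was compared between genes without a correction for gene length. Reads that mapped to several places, 28.5% and 31.0% of the reads, appear to be in no gene's count, and how many belonged to these genes was not measured. The longest stretch that any of the 7 hairpins shares with another of the 2202 miRNA hairpins searched is 17 nt, between Mir200a and Mir141. The neural label was checked against 10 neural miRNA genes of the tables. They held 0.729% ± 0.00041 (SD, n = 2) of the counts, led by Mir137 at 5096 ± 101 CPM, while the copies of Mir124a were near 0, with 0 to 31 counts each. Reads that fit several copies of a gene appear to be in no count, so low counts of such copies do not show a low level of the miRNA. The neural share may be too low for the same reason. Endothelial Mir126a was at 16576 ± 789 CPM, 4 blood genes together at 0.0202% ± 0.0043, and 3 glial genes at 0.273% ± 0.0053.

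All 7 genes were detected, each with at least 10 counts in both libraries, a level that 18.8% of all gene rows reached. They were low as a group. Their summed counts were 4264 in replicate 1 and 4961 in replicate 2, or 0.0607% and 0.0865% of the same-strand counts. Mir203 alone made up 76.8% and 76.3% of that sum, so most counts of the set came from this gene. The 5 miR-200 genes together gave 16.6% and 12.9% of it, and Mir205 gave 6.61% and 10.8%.

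Mir203 was the highest of the 7 in both libraries, with 3273 counts or 466 CPM in replicate 1 and 3783 counts or 659 CPM in replicate 2. Its mean was 563 ± 136 CPM (SD, n = 2), and it ranked 105 and 94 among the 1973 gene rows. Mir205 had 282 counts (40.2 CPM) in replicate 1 and 536 counts (93.4 CPM) in replicate 2. Its level thus depended on the library more than that of any other of the 7 genes, with a mean of 66.8 ± 37.6 CPM and ranks of 235 and 189.

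Within the chromosome 4 cluster, Mir429 was the highest, with 339 and 335 counts, or 48.3 and 58.4 CPM. Mir200b had 109 and 80 counts, or 15.5 and 13.9 CPM. Mir200a, which lies between them, had 23 counts in each library, or 3.28 and 4.01 CPM, the lowest of the 7. Genes of this cluster, annotated within the same transcripts, thus covered a wide range, and their ranges did not overlap.

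The chromosome 6 cluster showed the same kind of inequality. Mir200c had 207 and 177 counts, or 29.5 and 30.8 CPM. Mir141 had 31 and 27 counts, or 4.42 and 4.71 CPM. The means were 30.2 ± 0.96 and 4.56 ± 0.20 CPM. These 2 genes had the smallest SD of the set relative to their mean.

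**Figure D1:**
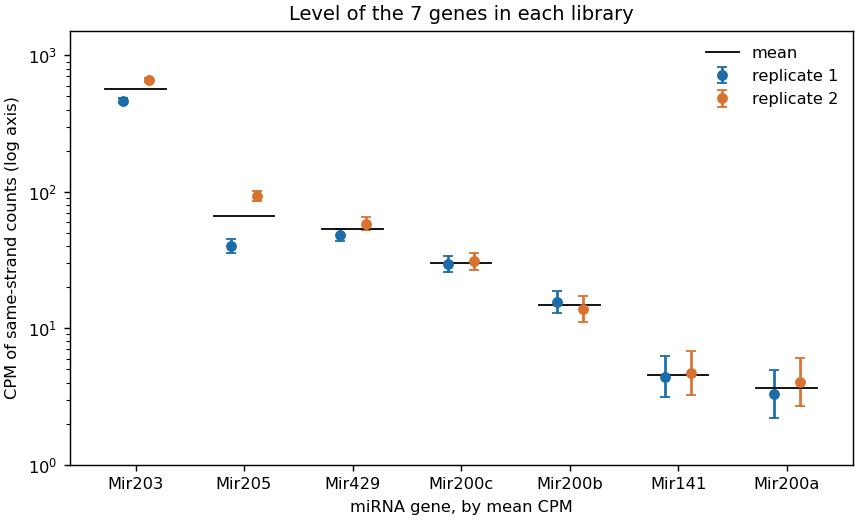
Level of each gene in CPM of same-strand counts on a log axis, with 1 point per library, its Wilson 95% interval (counting error only) and a black line at the mean of the 2 libraries. Mir203 stands above the other 6 in both libraries, the 2 points of Mir205 lie far apart at 40.2 and 93.4 CPM, and Mir141 and Mir200a lie lowest with overlapping intervals.

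By mean level the order was Mir203, Mir205, Mir429, Mir200c, Mir200b, Mir141 and Mir200a. Neighbours were compared by the log2 ratio of their counts within a library, which needs no scaling, with exact 95% intervals for counting error. Mir203 exceeded Mir205 9.05-fold, with log2 ratios of 3.54 and 2.82, a mean of 3.18 ± 0.51. Mir205 and Mir429 could not be ordered: the log2 ratio of Mir205 to Mir429 was -0.27 (interval -0.50 to -0.033) in replicate 1 and 0.68 (0.48 to 0.88) in replicate 2. Mir429 exceeded Mir200c 1.76-fold, at log2 0.82 ± 0.15. Mir200c exceeded Mir200b 2.05-fold, at 1.04 ± 0.16. Mir200b exceeded Mir141 3.23-fold, at 1.69 ± 0.17. These 3 steps were larger than their SD, and their intervals stayed above 0 in both libraries. The direction of each step from Mir205 down was taken from the order observed in these same libraries. A mean above 0 therefore follows largely from that order and is no separate support for it. The last step, Mir141 over Mir200a, was 0.33 ± 0.14, but its intervals reached from -0.39 to 1.28 and from -0.63 to 1.10, so a difference was not detectable at this depth.

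The next comparison set the miR-200 clusters against each other and against the skin-type genes. The chromosome 4 cluster was the higher of the pair. Its 3 genes summed to 471 and 438 counts (67.1 and 76.3 CPM), and the 2 genes on chromosome 6 to 238 and 204 (33.9 and 35.6 CPM). The log2 ratio was 0.98 (0.76 to 1.22) in replicate 1 and 1.10 (0.86 to 1.35) in replicate 2, a mean of 1.04 ± 0.083 or 2.06-fold. The chromosome 4 cluster has 1 gene more. As a mean per gene the log2 ratio was 0.46, a smaller lead in the same direction.

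Both clusters were far below Mir203. The chromosome 4 cluster was 7.75-fold lower, at log2 ratios of -2.80 and -3.11, and the chromosome 6 cluster 16.0-fold lower, at -3.78 and -4.21. Even the sum of the 5 miR-200 genes was 5.22-fold lower than Mir203, at -2.21 and -2.56 (mean -2.38 ± 0.25). All intervals of these ratios lay below 0 in both libraries.

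Against Mir205 the result turned on the library. The chromosome 4 cluster was higher than Mir205 in replicate 1, at a log2 ratio of 0.74 (0.52 to 0.96), and lower in replicate 2, at -0.29 (-0.48 to -0.11). The mean of 0.22 ± 0.73 was within its SD. The chromosome 6 cluster was at -0.24 (-0.50 to 0.0093) and -1.39 (-1.63 to -1.16), so that a difference from Mir205 was detectable in replicate 2 and not in replicate 1. The family sum was above Mir205 in both libraries, at 1.33 (1.13 to 1.53) and 0.26 (0.093 to 0.43), but as a mean per gene it was below Mir205, at a log2 ratio of -1.53.

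**Figure D2:**
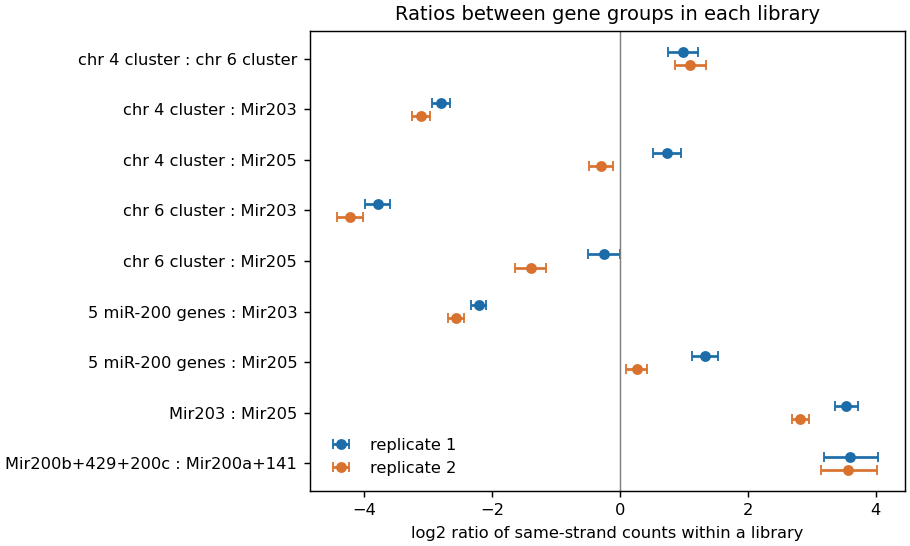
Log2 ratio of summed same-strand counts between gene groups, 1 point per library with its exact 95% interval for counting error, and a vertical line at 0 (equal counts). The ratios to Mir203 lie left of 0, the seed group ratio lies near 3.6 in both libraries, and the chromosome 4 cluster to Mir205 falls on opposite sides of 0 in the 2 libraries.

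Grouping by seed gave the steadiest of these group ratios. The seed shared by Mir200b, Mir429 and Mir200c, printed above with U at position 4, was represented by 655 and 592 counts. The seed of Mir200a and Mir141, with C there, was represented by 54 and 50 counts. The first group exceeded the second 12.0-fold, at log2 ratios of 3.60 (3.20 to 4.03) and 3.57 (3.15 to 4.01), a mean of 3.58 ± 0.025. The SD of 2 values is a poor guide to precision, and the counting intervals are wider than it.

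The same counts, split by cluster, gave the same direction inside each cluster. On chromosome 4, Mir429 exceeded Mir200a 14.7-fold (log2 3.87 ± 0.012) and Mir200b exceeded Mir200a 4.06-fold (2.02 ± 0.32). On chromosome 6, Mir200c exceeded Mir141 6.62-fold (2.73 ± 0.019). The member that shares the seed of Mir200a was thus the lower one in both clusters. Mir429 also exceeded Mir200b, its neighbour with the same seed, 3.61-fold (1.85 ± 0.30), so the levels differed within a seed as well. These ratios compare counted reads, and how ligation or the loss of multimapping reads moves each gene was not tested.

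**Figure D3:**
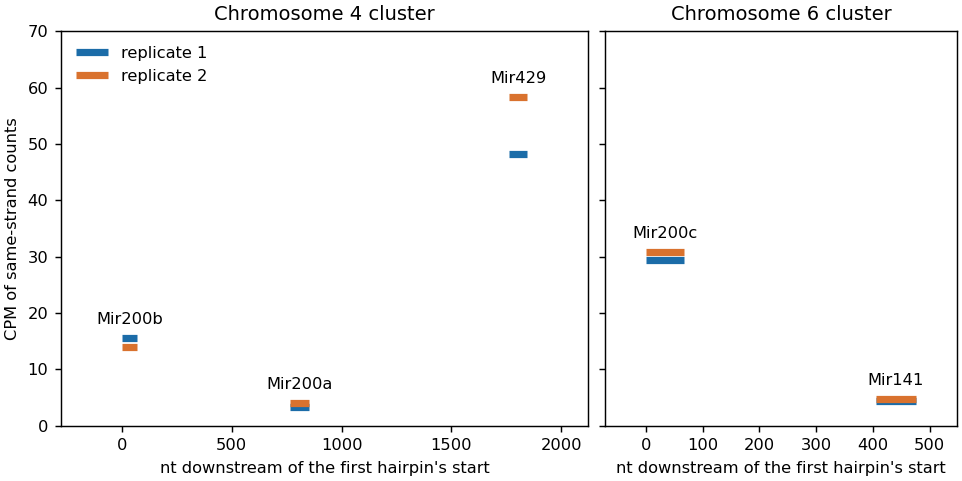
CPM of each miR-200 gene (vertical axis from 0, linear) at its distance in nt downstream of the start of the first hairpin in the direction of transcription, with 1 bar per library drawn as long as the hairpin. The gene with the lowest level of its cluster is Mir200a at 3.28 and 4.01 CPM and Mir141 at 4.42 and 4.71 CPM, and these genes make up the rarer seed group.

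In all, 18 ratios were computed, among them those between neighbours in level, whose direction was set by the observed order. The mean exceeded its SD, with the same sign in both libraries, in 16 of them, and the intervals excluded 0 in both libraries, on the same side, in 14. An exact two-sided sign-flip test over 2 libraries cannot give a p below 0.5, which those 16 ratios reached (Benjamini-Hochberg adjusted p = 0.5625), and so no ratio could pass a test in this design.

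The libraries were then compared with each other, as log2 of replicate 2 over replicate 1 in CPM. Of the 7 genes 6 were higher in replicate 2, with a median difference of 0.27, beside a median of 0.025 over the 371 genes that reached 10 counts in both libraries. Of those 371 genes, 195 were higher and 176 lower in replicate 2. Mir205 differed most, at 1.22 (exact 95% counting interval 1.01 to 1.43), or 2.32-fold. It was the only one of the 7 past 0.5 log2 units, a size that 13.2% of the 371 genes exceeded: 5.66% were higher and 7.55% lower in replicate 2. Only Mir449a (2.66), Mir206 (1.67) and Mir1298 (1.43) were further above, and these 3 genes were looked up after that count was seen.

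Mir203 was higher in replicate 2 by 0.4996 (0.43 to 0.57), just inside the limit of 0.5, and 21 of the 371 genes lay above it. With Mir10a, the most abundant gene, left out of the totals, Mir203 was at 0.53 and thus past the limit. The family members differed less. Mir200a was at 0.29 (-0.61 to 1.19), Mir429 at 0.27 (0.051 to 0.50), Mir141 at 0.095 (-0.71 to 0.88), Mir200c at 0.065 (-0.23 to 0.36) and Mir200b at -0.15 (-0.59 to 0.27). The counting interval excluded 0 for 3 of the 7 genes, Mir205, Mir203 and Mir429, and for 51.8% of the 371 genes, so that the share among the members is near that of all genes.

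**Figure D4:**
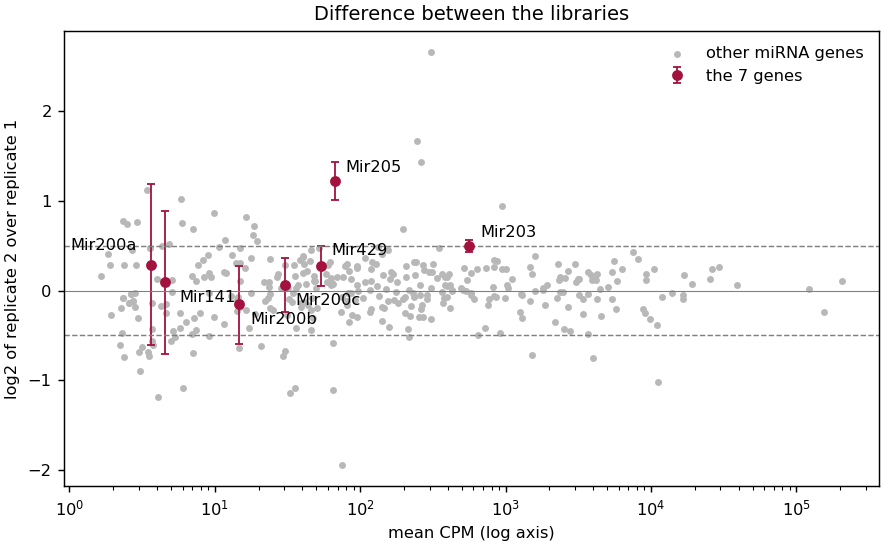
Log2 of replicate 2 over replicate 1 against mean CPM (log axis) for the 371 genes that reached 10 counts in both libraries, with the 7 genes in red with exact 95% counting intervals and dashed lines at 0.5 either way. Mir205 lies above the upper line at 1.22, Mir203 lies on it, and the 5 miR-200 genes lie between the lines, 4 of them with intervals that include 0.

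The skin-type genes and the miR-200 family are given side by side. Mir203 and Mir205 summed to 3555 and 4319 counts, a difference of 0.57 (0.51 to 0.64), while the family sum was at 0.15 (-0.0088 to 0.30). Singly, the interval of Mir203 overlaps those of Mir200a, Mir429 and Mir141. With 1 library on each side, whether the groups differ in this was not tested. In bulk tissue, more cells of a type and more RNA per cell cannot be told apart.

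Other genes also differed between these libraries, and their part in the higher counts of Mir203 and Mir205 was not tested. In a list of 7 mesenchymal genes, 6 passed 10 counts in each library and 5 of these were higher in replicate 2 (median 0.33), among them Mir143 at 0.20, Mir140 at 0.30 and Mir214 at 0.95. The other mesenchymal gene that passed, Mir145a, was lower, at -0.24 (-0.43 to -0.048). The list held 0.859% of the counts in replicate 1 and 1.06% in replicate 2. In the multiciliated list, 3 of 5 genes passed and all 3 were higher (median 0.48), with a summed share of 0.0386% and 0.0952%. The 4 blood genes were all lower (median -0.28, at 0.0232% and 0.0172%). The 7 neural genes that passed were split, 4 higher and 3 lower, with a median of 0.0032. All 3 glial genes were lower (median -0.12), and endothelial Mir126a was lower, at -0.097 (-0.11 to -0.085). Beside these lists, 195 of all 371 genes that passed were higher and 176 lower.

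MiRNAs of other epithelia gave a scale for these levels. The sensory and olfactory list, Mir182, Mir183 and Mir96, held 2.59% ± 0.83 of the counts, led by Mir182 at 11242 ± 5367 CPM, and all 3 genes were lower in replicate 2 (median -0.49). This is the opposite direction to Mir203 and Mir205. Of 6 genes listed for skin and surface ectoderm, 5 were in the tables and held 1.33% ± 0.13, mostly Mir23b (9822 ± 1525 CPM) and Mir21a (2673 ± 290 CPM), which many cell types express. Mir27b was at 772 ± 33.8 CPM. The more skin-restricted Mir31 was at 23.5 ± 0.46 CPM, between Mir200c and Mir200b, and 0 of the 5 genes differed by more than 0.5 between the libraries. Their median difference was 0.041, with 3 genes higher.

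The remaining epithelial lists were of the same order as the 7 genes or below them. The endocrine list and the gut, liver and kidney list hold copies of a gene, such as Mir7-1 and Mir7-2. Reads that fit several copies appear to be in no count, so these shares may be too low beside the 7 genes. The endocrine list held 0.0820% ± 0.00058, near the 0.0736% ± 0.018 of the 7 genes, with Mir7b at 289 ± 14.0, Mir7-1 at 229 ± 2.70 and Mir7-2 at 168 ± 15.1 CPM. Its median difference was -0.044, with 1 of 4 genes higher. The multiciliated list held 0.0669% ± 0.040, led by Mir34c at 346 ± 80.7 and Mir449a at 308 ± 317 CPM, with Mir34b at 14.8 ± 2.22 CPM. The gut, liver and kidney list held 0.0184% ± 0.0063, with Mir122 at 74.5 ± 62.0, Mir192 at 63.0 ± 2.08 and Mir194-2 at 43.5 ± 3.35 CPM, and 3 of its 4 genes above 10 counts were lower in replicate 2 (median -0.15). The lens, pigment and choroid plexus list rested on Mir204 at 196 ± 65.1 CPM, higher in replicate 2 by 0.69 (0.57 to 0.81), while Mir211 and Mir184 had 5 to 11 counts in each library.

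Genes outside the set with the most similar pair of levels were named by their Euclidean distance in the 2 log2 CPM values. With 2 libraries this compares level and replicate difference and nothing more. Mir205 had no close neighbour: the nearest, Mir448 (308 and 349 counts) and Mir29a (386 and 393 counts), were at distances of 0.63 and 0.64. Mir203 was nearest to Mir674 at 0.23 (3782 and 3551 counts) and Mir341 at 0.23 (3304 and 3220 counts). The chromosome 4 genes had closer neighbours, Mir1955 at 0.026 for Mir200b, Mir448 at 0.15 for Mir429 and Mir7083 at 0.14 for Mir200a. For chromosome 6 they were Mir224 at 0.11 for Mir200c and Mir3085 at 0.17 for Mir141.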

How the data were processed

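MicroRNA-seq libraries of 2 neural tube samples were used, both of 1 group. The authors deposited unnormalized read counts for each miRNA gene. Build mm10 and annotation M4 are named per the file headers, while aligner and counter were not stated there or in the labels. The strand of the 3 count columns was inferred from the values, and the second was used as the same-strand count. Rows that name no gene were left out of totals: multimapping reads were 28.5% and 31.0% of the reads, unmapped 17.4% and 12.2%, and reads in no gene 2.95% and 3.10%.

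Gene identifiers were matched without version to GENCODE M21, 1894 of 1973. The 79 unmatched rows held 8 counts. CPM, shares and log2 ratios were computed from same-strand counts. Replicate differences used a pseudocount of 0.5 and, over all genes, a minimum of 10 counts in each library. Intervals are 95% Wilson (shares) or exact binomial (ratios). They are computed from read counts alone and cover counting error only. No molecular identifiers mark reads from the same molecule, so such reads count separately and the intervals may be too narrow. The SD is over the 2 libraries, which may differ for technical reasons. Scripts used Python 3.11.15 with scipy 1.17.1 and were tested on simulated data.

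The members and lists were chosen with earlier results of these data known. Named genes are the 7 members, up to 3 genes of highest mean CPM per list, and the 2 nearest genes of each member. For the miR-200 genes only the nearest is given. Mir31, Mir214, Mir145a, Mir124a, Mir211 and Mir184 were added after their values were seen. Alternatives were the unstranded column, TMM (edgeR 4.0.16) or DESeq2 1.42.0 scaling, a total without Mir10a, other pseudocounts, minimums and limits, other summaries of a cluster, and each library left out. Mir24-1 and Mir9-1, listed before, were not analysed here.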

Additional observations from a re-analysis of the deposited data

Results flagged for a closer look

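Counts on the strand opposite to Mir203 were flagged as a signal outside the same-strand counts used above. They numbered 75 in replicate 1 and 69 in replicate 2, or 2.24% (Wilson 95% interval 1.79 to 2.80) and 1.79% (1.42 to 2.26) of the counts on both strands, above the limit of 3 counts that a count of 0 allows. Summed over all gene rows, opposite-strand counts were 1.41% and 1.47% of the counts on both strands, and the interval of Mir203 in replicate 2 includes that share. They were uneven between genes: of the 371 genes that reached 10 same-strand counts in both libraries, 339 had 0 opposite-strand counts, and 7, Mir203 among them, had more than 3 in each library. Mir141 had 1 opposite-strand count in each library, and the other 5 genes had 0. RefSeq (GRCm38.p6) places a gene on the minus strand inside the Mir203 hairpin, Gm51289, also named mmu-mir-203b, at chr12:112130887-112130946, within Mir203 at chr12:112130880-112130955 on the plus strand. Both hairpins are shown 5′ to 3′ because Gm51289 is the reverse complement of a stretch of Mir203, with mmu-miR-203-3p and mmu-miR-203b-3p in capitals. The stretches in capitals do not lie opposite each other: mmu-miR-203-3p is at 112130927 to 112130948 and mmu-miR-203b-3p at 112130887 to 112130908.
Mir203: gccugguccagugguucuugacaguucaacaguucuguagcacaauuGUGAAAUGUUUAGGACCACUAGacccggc
Gm51289: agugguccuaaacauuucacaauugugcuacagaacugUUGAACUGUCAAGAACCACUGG
Scaled to the same-strand totals, these counts would stand at 10.7 and 12.0 CPM, near the 15.5 and 13.9 CPM of Mir200b. The tables do not place reads within a hairpin, and whether they derive from Gm51289 was not tested.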

How the results depend on the processing

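Ratios within a library rest on low counts in Mir200a and Mir141 and on 2 libraries, and 3 alternatives (hairpin length, the sum without Mir203, the median over the 5 miR-200 genes) were chosen after seeing the data. Without Mir10a in the total the 7 genes held 0.0927% of the counts, as the total is smaller, and Mir203, now at 0.53, joined Mir205 past the limit, so that 2 of the 7 genes passed it. Without Mir203 the other 6 held 0.0173%. As a mean per gene, the log2 ratio of the chromosome 4 to the chromosome 6 cluster was 0.46, to Mir203 -4.54 and to Mir205 -1.36, which reversed. That of the chromosome 6 cluster was -5.00 to Mir203 and -1.82 to Mir205, and that of the family -4.70 to Mir203 and -1.53 to Mir205, which reversed. With the highest gene of each cluster, the ratio between clusters was 0.82, Mir203 was compared at -3.38 by the chromosome 4 cluster and by the family, and Mir205 at -0.21 by both, a reversal. The mean per gene divides the same sum by the number of genes, and the highest gene leaves the others out. Per hairpin length, the ratio between clusters was 0.83, the chromosome 4 cluster to Mir205 reversed to -0.014, and the seed group ratio was 3.64, or 3.56 with the unstranded column. With each library left out, the chromosome 4 cluster to Mir205 ranged from -0.29 to 0.74 and Mir205 to Mir429 from -0.27 to 0.68. Past 1 log2 unit there were 13 of 371 genes (3.50%) in place of 49 (13.2%). Past 0.5 there were 315 of 726 (43.4%) with a minimum of 1 count summed and 26 of 306 (8.50%) with 100 summed. Replicate differences could not be computed without a library. TMM and DESeq2 scaling left 6 of 7 genes higher in replicate 2 and put Mir203 at 0.47 in both, Mir205 at 1.18 and 1.19.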
